A study of Mus musculus with 10 samples.

Results

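Grouped PRDM14 peaks are peaks of an immunoprecipitation of tagged PRDM14 that have at least 1 further such peak close by on the same chromosome. A peak was a member when its peak position, the deposited point of strongest signal inside the interval, lay 10 kb or less from that of another peak, and members linked in this way were chained into groups. Of the 3608 peaks deposited, 583 were members and formed 266 groups, and the other 3025 had no neighbour within 10 kb. Members were thus chosen by the deposited peak positions, so group sizes, spans and spacings are given as a description, and no test was run on any value of the list.

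PRDM14 is a PR-domain zinc finger protein that binds DNA by its zinc fingers and is made in pluripotent cells and primordial germ cells. In mouse embryonic stem (ES) cells it is known to sustain naive pluripotency, to hold down fibroblast growth factor receptor signalling and the de novo DNA methyltransferases, and to work with Polycomb repressive complex 2, whose subunit SUZ12 and histone mark H3K27me3 were also assayed in the study. Regulatory DNA of ES cells often carries several binding sites of a factor within a short distance, each of which can give a peak of its own in chromatin immunoprecipitation with sequencing (ChIP-seq), the assay used here.

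The study comprised 10 ChIP-seq libraries of C57BL/6 mouse ES cells, 6 immunoprecipitated and 4 input. The peaks come from 1 of them, an immunoprecipitation with an antibody against GFP (Abcam, ab290) from Prdm14-/- cells that carried an AVI-EGFP-Prdm14 rescue construct. The antibody against GFP reports on the tagged protein, and these cells have no wild-type Prdm14 allele to make untagged PRDM14. The sources used here do not state the promoter of the construct or how much protein it makes. Cells were grown with serum and LIF and fixed with 1% formaldehyde for 5 min. The libraries of Prdm14-/- cells rescued by EGFP alone, of Prdm14+/+ cells and of unrescued Prdm14-/- cells were not analysed here. Whether single peaks also appear with EGFP alone was therefore not tested, and a peak is not by itself proof of PRDM14 binding. The library has no replicate and an unknown read depth, so the precision of single heights is unknown.

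Most groups were pairs. A group held 2 peaks in 237 of 266 cases (89.1%, 95% Wilson interval 84.8% to 92.3%, which covers counting error only). There were 20 groups of 3 peaks and 5 groups of 4. Beyond these came 1 group of 5, 2 groups of 6 and 1 group of 12. Pairs thus held 474 of the 583 members, groups of 3 held 60, and the 9 groups of 4 or more held 49. Members made up 16.2% of the list and 18.8% of its summed height, where height is the maximum of the immunoprecipitated signal in the interval, a whole number taken here to be piled-up reads.

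Distances inside groups, which the rule bounds at 10 kb, were mostly in the lower part of that range. The 317 distances between neighbouring members ran from 390 to 9960 bp, and their median was 3100 bp (quartiles 1770 and 6050 bp). The range from 1000 to under 2000 bp was the fullest, with 80 distances (25.2%), and 152 distances (47.9%) were under 3000 bp, whereas 105 (33.1%) were 5000 bp or more. From 4000 bp upward each further step of 1000 bp held between 17 and 24 distances, so the spacing had a crowded short end and a flat tail. Only 21 distances were under 1000 bp. Peak positions lie on a grid of 10 bp in the deposited table, so distances come in steps of 10 bp. Short distances are also limited by the intervals, which did not overlap. Their width in members was at least 309 bp, with a median of 819 bp. The small number under 1000 bp is therefore not a measure of how closely sites can lie.

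**Figure D1:**
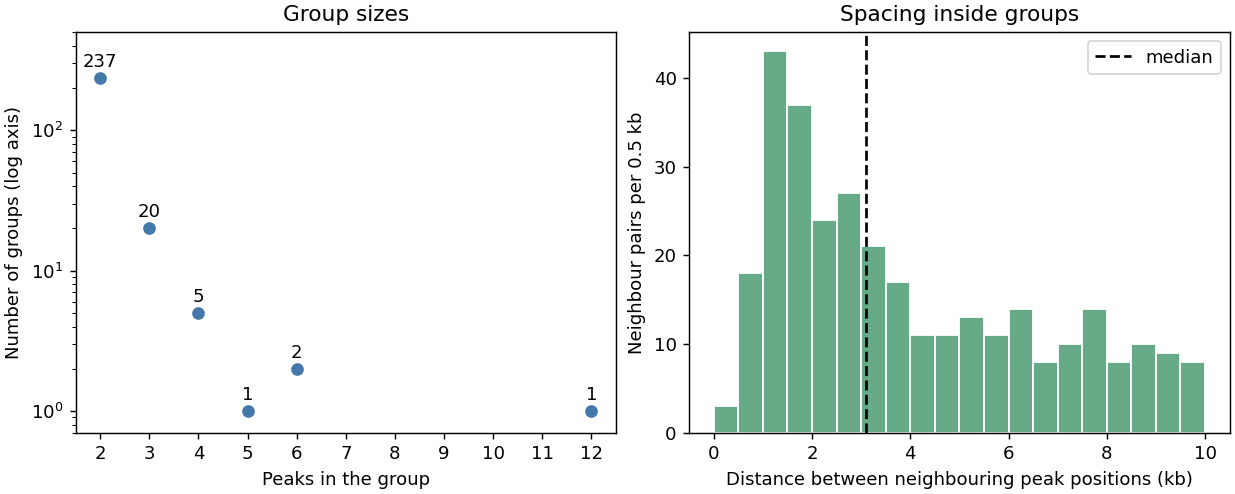
Left, number of groups (log axis) by the number of peaks they hold, with the count written at each point. Right, distance in kb between neighbouring peak positions inside groups in steps of 0.5 kb, with the median of 3100 bp as a dashed line; distances of 1000 to under 2000 bp are the most common.

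Measured between the edges of intervals, the gaps had a median of 2301 bp, and 94 of 317 (29.7%) were under 1000 bp. In 11 cases fewer than 100 bp separated the intervals, and the smallest gap was 1 bp, although no intervals overlapped. Such neighbours need not be distinct binding sites. The peaks of a group covered a median of 38.1% of the stretch from the start of its first to the end of its last interval, with quartiles of 25.2% and 63.2%. Inside pairs, the offset of the peak position from the middle of its interval, counted as positive toward the partner, had a median of -4.5 bp and quartiles of -70.25 and 75.5 bp, so offsets toward and away from the partner were of like size.

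From first to last peak position a group spanned a median of 3880 bp, with quartiles of 1905 and 6947.5 bp. Pairs spanned a median of 3450 bp and groups of 3 a median of 7245 bp. Only 13 groups exceeded 10000 bp, and 6 of these had 4 or more peaks. The shortest group was a pair on chromosome 5 at 15005840 to 15006749 (mm9, coordinates as deposited), whose positions were 390 bp apart and whose heights were 71 and 52 reads. The next lay on chromosome 9 at 3001900 to 3002779, with positions 480 bp apart and heights of 91 and 83 reads. The third lay on chromosome 8 at 19944860 to 19945979, with positions 700 bp apart and heights of 153 and 87 reads. These 3 short groups were alike in having intervals no wider than 459 bp and enrichments, which are the authors' ratios, of at most 20.2.

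The limit of 10 kb cut through peaks of high and low height. The 3 widest distances that still linked peaks were 9930 bp on chromosome 5, between peaks of 51 and 75 reads, 9950 bp on chromosome 8, between peaks of 407 and 114 reads, and 9960 bp on chromosome 2, between peaks of 978 and 868 reads. The 3 narrowest distances left unlinked were 10040 bp on chromosome 1 (68 and 165 reads), 10140 bp on chromosome 16 (60 and 61 reads) and 10150 bp on chromosome 11 (97 and 150 reads). The second peak of the last of these was itself a member of another pair. In steps of 2500 bp, neighbouring peaks of the whole list were 125, 87, 57 and 48 up to the limit, and 28, 39, 26 and 32 from there to 20000 bp. Their number was thus 48 in the last step inside the limit and 28 in the first step outside it.

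The tallest peak led its group by a modest factor in most cases. Its height divided by that of the second peak had a median of 1.58 over the 266 groups, with quartiles of 1.22 and 2.49. In 64 groups (24.1%) the ratio was under 1.2, so the first and second peak were of nearly equal height. In 99 groups (37.2%, Wilson interval 31.6% to 43.2%) the tallest was at least 2 times the second, in 22 groups at least 5 times and in 4 groups at least 10 times. The tallest peak of a group is taller by choice, so a ratio above 1 is not a finding, and a floor near 51 reads in the list limits how large the ratio of a low pair can become. Only 2 peaks of the whole list were below 51 reads, at 45 and 50 reads, and both were grouped.

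**Figure D2:**
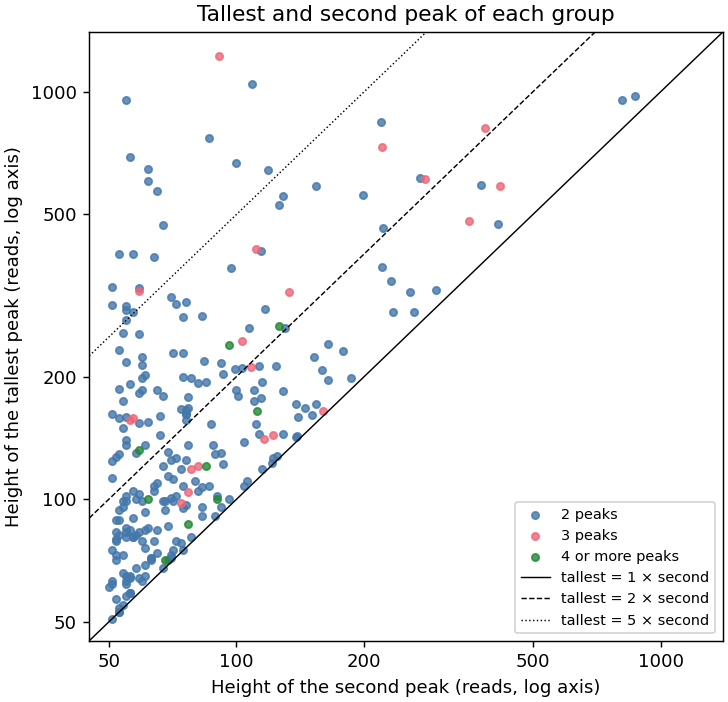
Height of the tallest peak (y) against that of the second peak (x) in each of the 266 groups, in reads on log axes, colored by group size, with lines where the tallest equals 1, 2 and 5 times the second. Most groups lie between the solid and the dashed line, with 99 at or above 2 times, and only 2 groups have a second peak above 500 reads.

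Among pairs, the taller peak had a median height of 136 reads and the lower one 69 reads. The quartiles were 56 and 96 reads for the lower peak and 86 and 214 reads for the taller one. The lower of 2 values from a list with a floor has the narrower spread by choice. In 36 pairs the taller peak reached 300 reads or more, and there the lower peak had a median of 104.5 reads and ran from 51 to 868 reads. The quartiles of the lower peak in these 36 pairs were 63.5 and 221.25 reads, so tall peaks had partners over a wide range of heights. In the 79 pairs whose taller peak was under 100 reads the lower one had a median of 57 reads. There the lower peak cannot exceed the taller one, so the difference between the medians is partly fixed by the split. Both members of a pair reached 300 reads in 4 pairs. The taller peak came first along the chromosome in 115 pairs and second in 118, and 4 pairs had equal heights.

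Groups of 3 had a median ratio of 2.03 and a median tallest peak of 228 reads (n = 20). The tallest was in the middle in 5 of them and at an end in 15, and the lowest was in the middle in 11. A group of 3 has more end places than middle places, so these counts are not read as a preference. The 9 groups of 4 or more had the smallest share of their height in 1 peak. There the tallest held a median of 35.2% of the summed height, with a range of 12.6% to 47.5%, against 55.8% in groups of 3 and 61.2% in pairs. This share falls as peaks are added, even among equal peaks. The median of the tallest peak in groups of 4 or more was 121 reads, below that of pairs and of groups of 3. More peaks in a group thus did not go with a taller leading peak in these 9 groups.

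The most uneven pairs joined some of the tallest peaks of the list with peaks near its floor. On chromosome 10 at 56093440 to 56096149, a peak of 957 reads lay 1400 bp before one of 55 reads, a ratio of 17.4. On chromosome 8 at 114172160 to 114175079, peaks of 691 and 56 reads lay 1750 bp apart (ratio 12.3). On chromosome 4 at 132524110 to 132534009, peaks of 646 and 62 reads lay 9120 bp apart (ratio 10.4). In all 3, the taller peak was the first along the chromosome. The pair on chromosome 19 at 37951750 to 37956489 had 603 and 62 reads with enrichments of 505.98 and 80.03. In the pair on chromosome 4 at 129423530 to 129428519 the order was turned, with 109 reads first and 1046 reads 3840 bp further on. Its enrichments of 21.5 and 421.9 were a factor of 19.6 apart, the widest such factor of all 266 groups.

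At the other end were pairs of equal height. On chromosome 8 at 74201200 to 74210899 both peaks had 75 reads, on chromosome 13 at 41445010 to 41454279 and on chromosome 6 at 82713740 to 82723219 all 4 had 53 reads, and on chromosome 7 at 147131440 to 147136779 both had 51 reads. The fifth most even pair, on chromosome 8 at 97057720 to 97064699, had 68 and 67 reads. All 5 were low pairs, and their positions were 4600 to 9010 bp apart. Equal height did not go with equal enrichment, since the pair on chromosome 13 had enrichments of 12.97 and 57.1.

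High and even pairs also occurred. Among the 5 groups with the tallest peaks, that on chromosome 2 at 167355030 to 167366839 held peaks of 978 and 868 reads, 9960 bp apart, at rank 12 and rank 16 of the whole list by height. The pair on chromosome 11 at 117833350 to 117838529 held peaks of 957 and 809 reads, 3690 bp apart. In both, the lower peak was the wider one, at 2129 and 2169 bp against 1439 and 1759 bp. The remaining groups of the 5 were uneven: the pairs on chromosome 10 and on chromosome 4 at 129423530 described above, and a group of 3 on chromosome 1 at 13064500 to 13076049. That group held the tallest peak of all 3608, with 1226 reads, after peaks of 91 and 79 reads at 10070 and 3300 bp before it. The enrichments in the same order were 33.2, 48.03 and 216.2, so the leading peak stood out by a factor of 13.5 in height and of 4.5 in enrichment.

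Height and enrichment often chose the same leader. Both are values of the same library, so some agreement is built in. In the 262 groups without a tie in height, the tallest peak was also the most enriched in 183 (69.8%, Wilson interval 64.0% to 75.1%). Where the tallest was at least 2 times the second, the leaders were the same peak in 86 of 99 groups (86.9%). With a ratio under 1.2 they were the same in 34 of 60 groups (56.7%). Most groups are pairs, in which leaders picked at random would also often be the same peak. No share for random picks was computed. The deposited enrichment carries a factor that differs between chromosomes, from 0.95 to 1.30 as estimated from the largest quotient of enrichment and height on each. Ratios inside a group are free of it. The most enriched peak exceeded the second by a median factor of 1.90, against 1.58 for height.

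The group of 12 peaks lay on chromosome 7 at 38960680 to 38985319 and spanned 23920 bp, the longest span of all. Along the chromosome its heights were 61, 100, 56, 60, 53, 90, 59, 68, 57, 76, 61 and 51 reads. No peak dominated: the tallest was 1.11 times the second and held 12.6% of the summed height. Distances between neighbours ran from 760 to 4230 bp, with a median of 2010 bp. The enrichments were low throughout, from 7.08 to 28.0 with a median of 12.8, against a median of 60.1 over all members. The sixth peak was 3419 bp wide, which was the widest interval of the list. Only 6 peaks were left here when intervals closer than 1 kb were merged, and 1 had an enrichment of 20 or more.

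Both groups of 6 peaks had low enrichments as well. The group on chromosome 8 at 19917560 to 19928999 had heights of 96, 53, 45, 61, 83 and 239 reads, with the tallest last and 2.49 times the second. Its enrichments ran from 5.71 to 22.6, and 3 of its intervals were narrower than 500 bp. The tallest peak, of 239 reads, had an enrichment of only 9.91. The short pair on chromosome 8 with 153 and 87 reads lay 16540 bp away, and no other peak was nearer to this group. The group on chromosome 5 at 15184070 to 15197249 had heights of 121, 71, 57, 57, 52 and 85 reads and enrichments of 4.58 to 30.6. It consisted of 4 peaks within 3000 bp and, after a step of 8730 bp, a close pair. When intervals closer than 1 kb were merged, only 2 peaks were left here, against 5 in the group of 6 on chromosome 8.

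The group of 5 peaks, on chromosome 15 at 89002870 to 89013239, was of another kind. Its heights were 54, 65, 54, 71 and 68 reads, within the range of the group of 12, but its enrichments were 66.6, 50.5, 39.4, 77.6 and 31.4. The tallest peak was 1.04 times the second. Neighbours were 2250, 2300, 1840 and 3240 bp apart, and all 5 intervals were between 619 and 739 bp wide. All 5 peaks were left after merging of intervals closer than 1 kb.

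**Figure D3:**
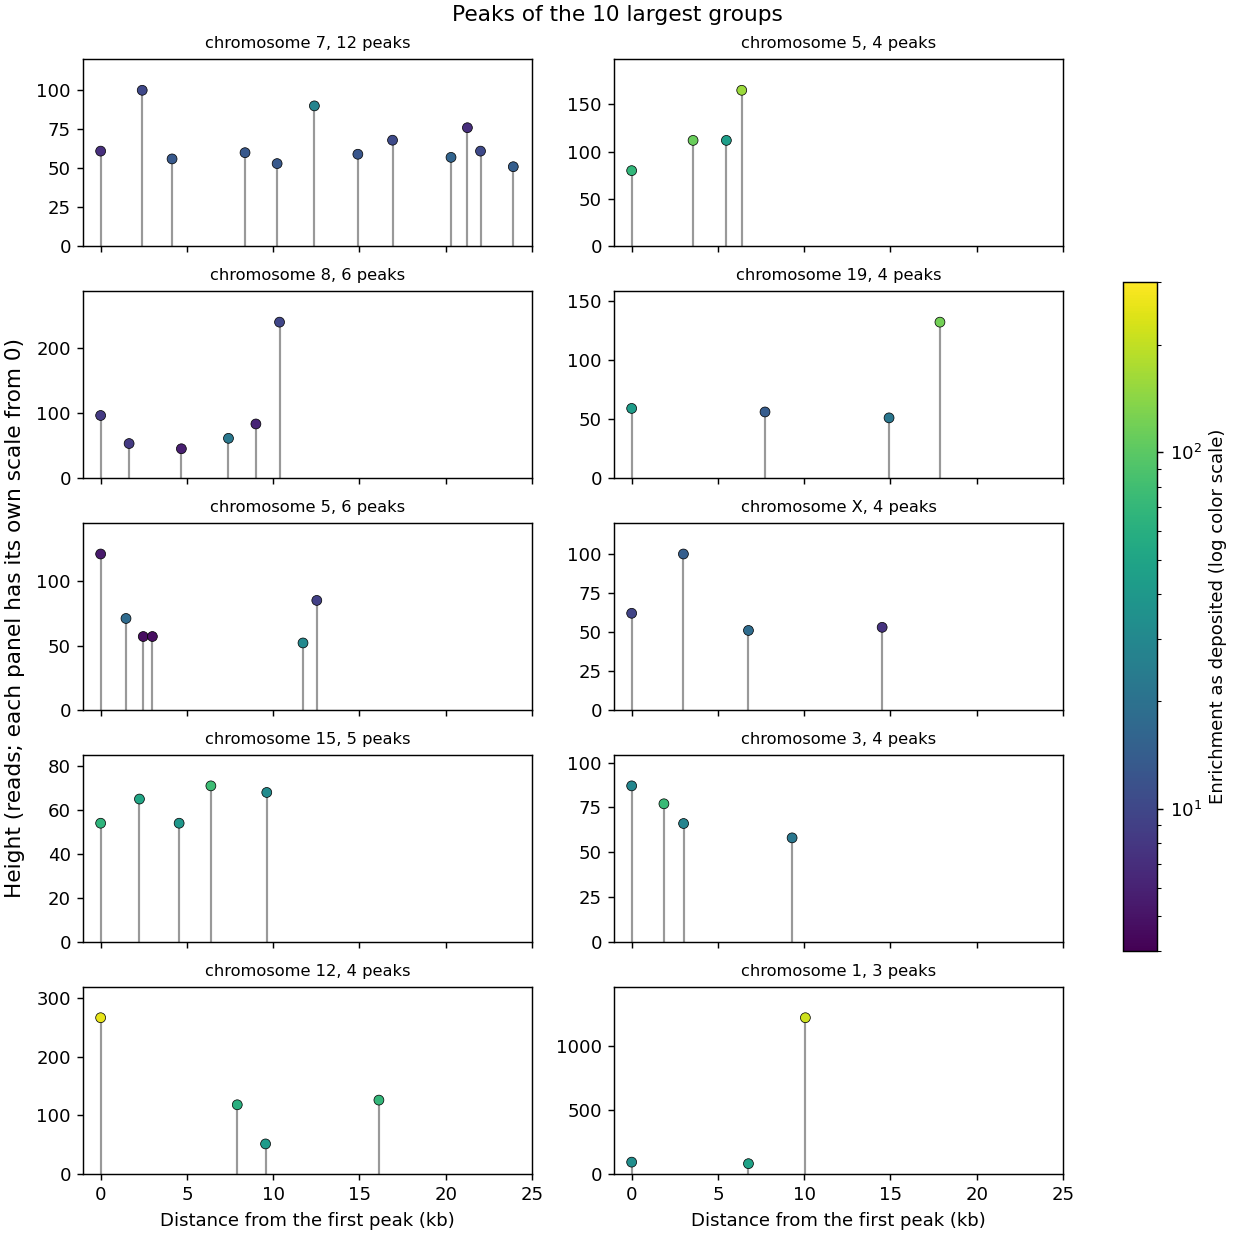
The 10 largest groups, 1 panel each. Each stem is a peak at its distance in kb from the first peak of the group, with its height in reads (linear axis from 0, scaled per panel) and its deposited enrichment as color on a log scale. The groups of 12 and of 6 peaks are dark, at low enrichment, whereas the group of 5 and 4 of the 5 groups of 4 reach enrichments above 70.

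Of the 5 groups of 4 peaks, 2 had a tallest peak of more than 2 times the second. On chromosome 12 at 88236280 to 88253709 the heights were 267, 118, 51 and 126 reads and the leading peak had an enrichment of 255.1. On chromosome 19 at 44340370 to 44359569 they were 59, 56, 51 and 132 reads, with an enrichment of 120.04 at the last, tallest peak against 13.8 to 42.6 at the others. The group on chromosome 5 at 135412000 to 135419519 was more even, and its heights were 80, 112, 112 and 165 reads, and the tallest was 1.47 times the second. Merging of intervals closer than 1 kb left 2 peaks there and 3 or 4 in each other group of 4. The group on chromosome 3 at 133178310 to 133188239 was flat, with 87, 77, 66 and 58 reads, and its most enriched peak was the second, at 74.8. That on the X chromosome at 32096740 to 32111589 had 62, 100, 51 and 53 reads and no enrichment above 18.0. The nearest peak outside this last group was 2234410 bp away, whereas over all groups that distance had a median of 78550 bp.

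Low enrichment was not limited to large groups. In 9 groups with 21 peaks, on 6 chromosomes, every peak had an enrichment under 20, and 3 of these groups were on chromosome 5. Their tallest peaks ran from 61 to 184 reads. Over all members, 12.7% had an enrichment under 20 and 2.74% were narrower than 500 bp (16 peaks), against 8.69% and 0.463% (14 peaks) of the 3025 peaks without a neighbour. Large groups weigh on the members' share under 20. The group of 12 and both groups of 6 each kept only 1 peak at an enrichment of 20 or more. The group of 4 on the X chromosome kept 0, and the share without these groups was not computed. Of the 16 narrow members, 3 were in the group of 6 on chromosome 8. The group of 12 and the group of 6 on chromosome 5 each held 1. Neither share can therefore be read as a trait of grouped peaks in general. The limit of 20 was chosen after the values were seen. At the upper end, 8.92% of members and 5.42% of the other peaks reached 300 reads. Members, which were 16.2% of the list, accounted for 29 of the 100 tallest peaks, 15 of the 50 tallest and 2 of the 10 tallest. The middle of the distribution differed little, with a median width of 819 bp against 809 bp and a median enrichment of 60.1 against 55.1. Positions and these values come from the same library, so no test of these differences is given.

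Inside groups, neighbouring peaks differed in height by about the same factor as neighbours far apart did. Neighbours less than 1500 bp apart had a median ratio of taller to lower height of 1.53 (n = 64), those 5000 to 10000 bp apart 1.65 (n = 105), and neighbours more than 200000 bp apart 1.59 (n = 2048). The quartiles overlapped throughout, at 1.25 and 2.15 for the closest neighbours and 1.22 and 2.42 for the most distant. Spearman's rho between the heights of neighbours less than 1500 bp apart was -0.001. It was 0.09 at 1500 to 3000 bp, 0.18 at 3000 to 5000 bp, 0.11 at 5000 to 10000 bp and 0.02 beyond 200000 bp. These are correlations across sites of 1 library in which a peak can belong to a pair on each side, and they are given without a p.

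The enrichments of close neighbours were correlated, although they differed by a larger factor than the heights. The median ratio of the higher to the lower enrichment was 1.96 for neighbours less than 1500 bp apart and 2.05 beyond 200000 bp. Their rho was 0.51 for neighbours less than 1500 bp apart, 0.22 at 1500 to 3000 bp, 0.32 at 3000 to 5000 bp and 0.14 at 5000 to 10000 bp. Among neighbours too far apart to be linked, it was 0.16 up to 50000 bp (n = 451) and -0.004 beyond 200000 bp. The value at 5000 to 10000 bp was thus not particular to groups. Neighbours share the factor of their chromosome. With only those neighbours in which both enrichments were at least 20, rho was -0.01 at less than 1500 bp (n = 48). It was -0.20 at 1500 to 3000 bp (n = 67), 0.09 at 3000 to 5000 bp (n = 48) and 0.01 at 5000 to 10000 bp (n = 88). The correlation was thus not seen among these neighbours, although the restriction also narrows the range of enrichment.

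**Figure D4:**
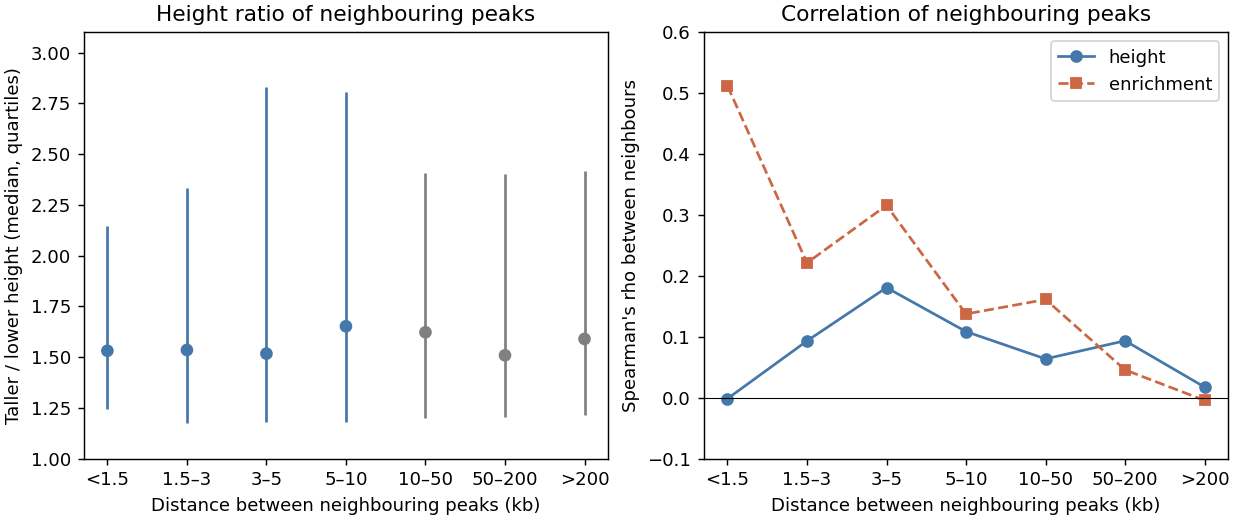
Left, ratio of the taller to the lower height of neighbouring peaks (median with quartiles) by the distance between them in kb, blue up to 10 kb and grey beyond; the medians stay between 1.51 and 1.65. Right, Spearman's rho between neighbours for height (circles) and enrichment (squares) over the same distances; rho for enrichment is 0.51 at the shortest distance.

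Groups were found on all 20 chromosomes, from 5 groups on chromosomes 14 and 18 to 29 on chromosome 4. Chromosome 8 had the largest share of its peaks in groups, 51 of 196 (26.0%, Wilson interval 20.4% to 32.6%). It was followed by chromosome 4 with 59 of 248 (23.8%, 18.9% to 29.5%), chromosome 15 with 22.5% and the X chromosome with 22.4% (15.3% to 31.7%). The lowest shares were those of chromosome 13, with 14 of 164 (8.54%, 5.15% to 13.8%), chromosome 18 with 8.87%, chromosome 14 with 9.02% and chromosome 1 with 24 of 249 (9.64%, 6.56% to 13.9%). Members join a group at least in pairs and are not independent, so these intervals can be too narrow. Within a chromosome the median ratio of tallest to second peak ran from 1.31 on chromosome 13, with 7 groups, to 3.40 on chromosome 19, also with 7.

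**Figure D5:**
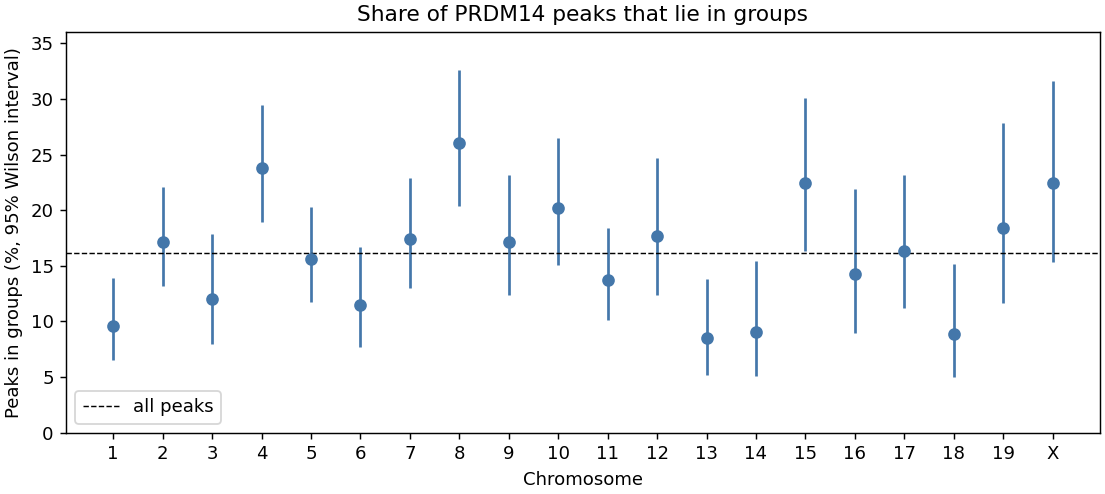
Percent of the PRDM14 peaks of each chromosome that lie in groups, with the 95% Wilson interval, and the 16.2% of all peaks as a dashed line. Chromosomes 8 and 4 lie highest and chromosomes 13, 18, 14 and 1 lowest.

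The nearest peak outside a group was within 20000 bp in 34 of 266 cases (12.8%) and within 50000 bp in 96 (36.1%). Another group lay within 50000 bp of 17 groups (6.39%) and within 20000 bp of 8. Genes and sequences at these positions are not given, because the annotation and sequence tables used here are of the build GRCm38 and the peaks are of mm9.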

How the data were processed

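Peaks of 1 GFP ChIP-seq library of PRDM14-rescued knockout ES cells were used. Immunoprecipitation used 10 µg of antibody and DNA sheared to about 150 bp, per the labels' protocols. Per the submitters' processing notes, coordinates are of mm9. The sources used here do not name an aligner, a peak caller, a control or a depth. Per the file headers, the authors deposited an enrichment, a ratio, and a maximum of the immunoprecipitation, a signal in whole numbers that is called height here. The deposited flag, a score, is 3 throughout and was not used. The BED list held the same 3608 intervals.

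Peaks were sorted by position and chained where neighbouring positions were at most 10 kb apart. Groups were described by counts, medians and quartiles, shares with 95% Wilson intervals. No test was run: the rule uses positions of the same library, and peaks are not replicates. Alternatives were other neighbour distances, merging of close intervals and stricter peak lists. The steps were tested on a simulated list. Members and lists were chosen with earlier results of these data known. Named are the 10 groups with most peaks, the 5 with the tallest peaks, the 5 most and 5 least even pairs, the 3 shortest and 3 longest groups, and 3 distances on each side of 10 kb. Other classes (enrichment under 20, 300 reads) were chosen after values were seen. The scripts used pandas 2.3.3 and NumPy 2.4.6 under Python 3.11.15, with SciPy 1.17.1 for intervals and matplotlib 3.10.9 for figures.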

Additional observations from a re-analysis of the deposited data

How the results depend on the processing

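Of 29 alternatives over 5 results, 23 stayed within 1.5 times the reported count or median, or inside the Wilson interval of the reported share. This factor is wide, and the counts depended on the neighbour distance. At 5 kb there were 391 grouped peaks in 179 groups, and at 20 kb 790 in 348 groups, all counted as within the factor. The number of grouped peaks fell from 583 to 199 when peaks below the median enrichment were left out and to 143, in 69 groups against 266, with only peaks of 100 reads or more, since both leave fewer peaks. Of the shorter lists, 11.0% and 10.1% were grouped. Merging intervals closer than 1 kb left 417 grouped peaks and raised the median spacing from 3100 to 4850 bp, because the shortest distances are removed by construction. With a neighbour distance of 20 kb the spacing was 5305 bp and the share of pairs 83.9%, against 89.1%. The median ratio of tallest to second peak stayed between 1.55 and 1.90 in its 6 alternatives. The group of 12 was the largest at neighbour distances of 5, 10 and 20 kb. Its neighbours were at most 4230 bp apart and the nearest outside peak was 619970 bp away. These distances therefore could not change its 12 peaks. It kept 6 peaks when intervals closer than 1 kb were merged. Only 1 of its peaks had an enrichment of 20 or more, and 1 had 100 reads or more. Without peaks of enrichment under 20, an alternative chosen after seeing the data, 475 peaks in 224 groups were left, and without peaks narrower than 500 bp 566 peaks in 261 groups. Motif and start-site alternatives were not run, since they need mm9 sequence or annotation. No replicate could be left out. No paired analysis was possible because no group has a second library. The unknown depth limits every height.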
